A study of Bos taurus with 14 samples.

Results

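The cytosolic ribosomal protein genes described here were chosen by symbol: RPL or RPS followed by a number and optional letters, with RPLP0, RPLP2 and RPSA, and without the RPS6K kinases and features that carry a numbered suffix. The rule found 64 of 23159 features, 37 for the large and 27 for the small subunit. Of these, 61 had at least 1 RPKM (reads scaled by gene length and mapped reads) in all 6 libraries compared, 34 large-subunit and 27 small-subunit genes, and these 61 were tested. RPL22 was listed at 0 in all 6 libraries, and RPL3L and RPL10L were too low to pass the filter. The same naming pattern with a suffix held another 35 features from 15 symbols, RPL5, RPS6 and RPLP1 among them; these stayed outside the set. Mammalian genomes hold many near-identical processed copies of ribosomal protein genes, and how the counting divided reads among them is not stated, so the level of any single gene is uncertain to that extent.

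The cytosolic ribosome, which translates mRNA into protein, is built from ribosomal RNA and a fixed set of proteins, the RPS proteins in the small subunit that reads mRNA and the RPL proteins in the large subunit that forms peptide bonds. Their mRNAs carry a pyrimidine tract at the 5′ end that ties their translation to mTOR signalling, and growing cells make them among the most abundant mRNAs. In mice the loss of single ribosomal proteins such as RPL38 gives tissue-specific defects. The preimplantation embryo starts with ribosomes stored in the oocyte and builds its own after its genome is switched on.

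The stem cells were CTFR-bESC, bovine embryonic stem cells derived from blastocysts (BL-derived ESC), lines A and B, sampled at passage 10 (P10). They grew on mouse embryonic fibroblast feeders (MEFs) in a custom base medium without growth factors, to which were added FGF2, a growth factor, at 20 ng/mL and IWR1, an inhibitor of WNT signalling, at 2.5 μM. They were set against 2 pools of 10 whole blastocysts, titled in vivo, which hold trophectoderm and hypoblast beside the inner cell mass, and 2 lines of skin fibroblasts. The labels name no strain, sex or age of the animals. Each group had 2 libraries. A p-value sets a difference against the spread within groups, pooled over the 3 groups and moderated across genes, which is a narrow base. Another 8 stem cell libraries from passages 12 to 46 are described at the end.

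The values are RPKM, read counts per gene length and mapped reads, without the counts, so the depth in reads is unknown. Summed RPKM was between 349527 and 435754 per library. In the blastocyst pools 2 features took 65.8% and 64.0% of that sum, against 2.4% to 3.4% for the top 2 in the other libraries. All other features share what is left of the sum in blastocysts, so changes are given both as deposited and relative to other genes. Several marker genes followed the labels: POU5F1 had 223 and 151 RPKM in P10 bESCs, 48.6 and 38.2 in blastocysts and 0 in fibroblasts. CDX2 was listed above 0 in blastocysts alone. VIM reached 7000 and 5799 RPKM in fibroblasts and had 553 and 796 RPKM in P10 bESCs. Others were less clear: NANOG overlapped between P10 bESCs (4.49 and 2.15 RPKM) and blastocysts (0.549 and 4.57). PDGFRA, listed here as a hypoblast marker, was highest in fibroblasts, with 49.3 and 65.8 RPKM, against 14.2 and 20.5 in blastocysts. It therefore does not mark hypoblast alone in these libraries. In bulk RNA, fewer cells of a type and less RNA per cell cannot be told apart.

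Ribosomal protein genes were among the most abundant genes everywhere. Of the 100 most abundant features, 48 and 54 were ribosomal protein genes in P10 bESCs of lines A and B, 43 and 34 in the blastocyst pools and 47 and 44 in the fibroblast lines. The median of the 61 genes was 758 and 1006 RPKM in P10 bESCs, 314 and 208 RPKM in blastocysts and 1366 and 1084 RPKM in fibroblasts. By this median of deposited RPKM the groups did not overlap, with blastocysts lowest and fibroblasts highest. Blastocysts were also below fibroblasts with median-of-ratios scaling and with quantile normalization, with median log2 differences of the 61 genes of -0.54 and -0.30. The place of P10 bESCs changed: the median log2 difference of the 61 genes between P10 bESCs and blastocysts was -0.17 with median-of-ratios scaling, and that between P10 bESCs and fibroblasts was 0.15 with quantile normalization.

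**Figure D1:**
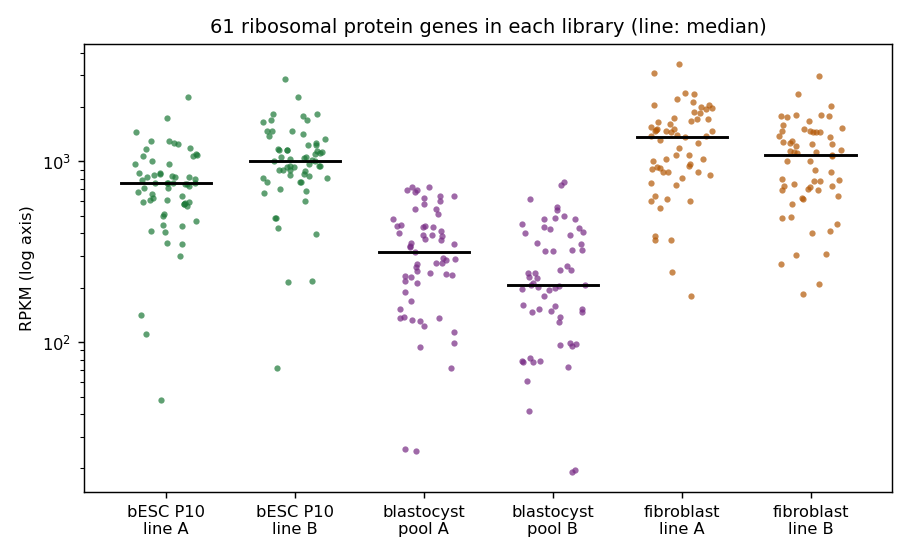
RPKM on a log axis of the 61 ribosomal protein genes with at least 1 RPKM in all 6 libraries, 1 point per gene, with the median of each library as a line. The medians were 758 and 1006 RPKM in P10 bESCs, 314 and 208 in blastocysts and 1366 and 1084 in fibroblasts.

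By mean RPKM over the 6 libraries, a level per gene length, the 4 highest genes all belonged to the small subunit. RPS12 averaged 1813 RPKM, RPS2, which lies near the mRNA entry channel, 1591, RPS24 1468 and RPS20 1424. The order depended on the cell type. RPS2 was the highest gene in P10 bESCs with 2284 and 2846 RPKM, against 269 and 229 RPKM in blastocysts. RPS12 had 1456 and 1777 RPKM in P10 bESCs, against 3440 and 2951 RPKM in fibroblasts, where it was the highest gene. In blastocysts the top gene of the 64 was RPL23 in pool A with 725 RPKM and RPS3 in pool B with 766 RPKM. The suffixed feature RPL10_2, outside the set, was higher in both pools, with 1066 and 1003 RPKM.

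At the low end, RPL15 averaged 88.6 RPKM, RPS29 138 and RPL9 245. The tissue-restricted paralogs were close to the limit of the data. RPL10L, which replaces RPL10 in male germ cells of mice, had 0.504 and 5.73 RPKM in P10 bESCs, was listed at 0 in both blastocyst pools and had 0.070 and 0.406 RPKM in fibroblasts. RPL3L, the striated-muscle copy of RPL3, had 0.259 and 0.599 RPKM in P10 bESCs, was listed at 0 in both blastocyst pools, and had 0 and 0.039 RPKM in fibroblasts. A value of 0 in these files can be a failed estimate, so RPL22, listed at 0 throughout, cannot be called silent; its paralog RPL22L1 had 94.3 and 115 RPKM in P10 bESCs, 56.8 and 50.6 in blastocysts and 193 and 145 in fibroblasts.

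The summed level of the 64 genes was 47783 and 64781 RPKM in P10 bESCs, 20827 and 15919 RPKM in blastocysts and 80820 and 65888 RPKM in fibroblasts. As a share of all summed RPKM this was 13.7% and 17.7% in P10 bESCs, 5.19% and 4.21% in blastocysts and 18.5% and 16.4% in fibroblasts. Without the 2 most abundant features the shares were 14.0% and 18.2% in P10 bESCs, 15.2% and 11.7% in blastocysts and 19.2% and 16.9% in fibroblasts. Then P10 bESCs overlapped with both other groups, and blastocysts stayed below fibroblasts in every library. With 2 libraries per group an exact permutation test of these sums cannot reach the threshold, so none was run.

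**Figure D2:**
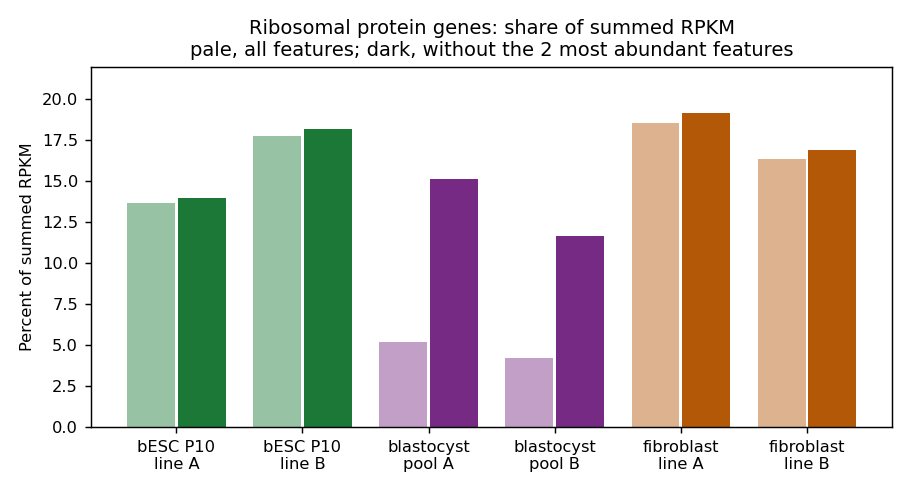
Share of summed RPKM held by the 64 ribosomal protein genes in each library, as percent of all features (pale bars) and without the 2 most abundant features of that library (dark bars). Blastocyst bars stand at 5.19% and 4.21% with these features and at 15.2% and 11.7% without them.

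Within the 61 genes both subunits had about equal sums in cultured cells. The sum of small-subunit genes divided by that of large-subunit genes was 1.00 and 1.01 in P10 bESCs, 0.858 and 0.930 in blastocysts and 1.01 and 0.984 in fibroblasts. The blastocyst values were the lowest of the 6. Suffixed features of both subunits are outside these sums, so the values are not ratios of whole subunits. Among them in P10 bESCs were RPL10_2 with 1042 and 1524 RPKM and RPS25_1 with 1051 and 1351 RPKM.

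The genes moved together between libraries of one group. Line B was above line A at P10 for all 61 genes, with a median log2 ratio of 0.46, while the median over 10495 features with at least 1 RPKM in both was -0.02. Blastocyst pool B was above pool A for 4 of the 61 genes, with a median of -0.49, and fibroblast line B above line A for 1 of 61, with a median of -0.30, against 0.05 and -0.04 over all such features. Line B at P10 also had more RNA of the 7 fibroblast markers, 1008 RPKM in sum against 657 RPKM in line A. None was at 0 in either line, and all 7 were higher in line B. VIM gave most of both sums, with 796 RPKM in line B and 553 RPKM in line A. The part of these markers in the shift was not tested.

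Because of this shared shift, 2 sets of differences were tested with limma on log2(RPKM + 1) over 11761 genes, with a Benjamini-Hochberg adjusted p under 0.05 as the call. The first used the values as deposited. The second scaled each library so that the median of the 61 genes was equal, which leaves only differences within the module and does not depend on the library total. This scaling centres the 61 genes and not the others, so a near balance of higher and lower members follows from it. Shares of all genes on that scale are given as a description. The SE beside a difference is the moderated one of limma. Genes named for a difference were picked by these calls, so any lack of overlap between their libraries is a description and no separate support. Differences are on the log2(RPKM + 1) scale, which understates changes of low genes.

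In which ribosomal protein genes were high, P10 bESCs differed more from blastocysts than from fibroblasts. The SD of the module-relative log2 differences was 0.92 and 0.44 in that order. Relative to the module median, 16 of 61 genes (26.2%) were higher in P10 bESCs and 16 were lower, against 33.7% and 20.7% of all genes tested on that scale; these shares were not compared by a test. RPLP0, RPS2, RPS20, RPL29 and RPSA led the higher genes, and RPL9, RPL38, RPL34, RPS3 and RPL10A the lower. Both directions held large-subunit and small-subunit genes, with 8 and 8 among the higher and 10 and 6 among the lower.

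RPLP0, the base of the stalk on which elongation factors dock, had 1264 and 1644 RPKM in P10 bESCs, against 135 and 96.3 RPKM in blastocysts. Divided by the module median of each library, it was at 1.67 and 1.63 in P10 bESCs and at 0.431 and 0.464 in blastocysts. The log2 difference within the module was 1.88 ± 0.189 (SE, limma adjusted p = 7.7e-05), and as deposited it was 3.65 ± 0.260 (adjusted p = 3.48e-05). The P10 libraries were above both blastocyst pools on either scale.

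RPSA, a small-subunit protein also known as a laminin receptor precursor, was at 1.71 and 1.82 times the module median in P10 bESCs and at 0.600 and 0.623 in blastocysts. RPS20, a protein of the small-subunit head, was at 2.30 and 2.25 in P10 bESCs and at 0.748 and 0.777 in blastocysts. RPS2 was at 3.01 and 2.83 in P10 bESCs and at 0.856 and 1.10 in blastocysts. In each case the module-relative values did not overlap, with log2 differences of 1.53 ± 0.179 for RPSA, 1.57 ± 0.171 for RPS20 and 1.58 ± 0.188 for RPS2 (SE, limma adjusted p of 0.000177, 0.000115 and 0.000186 in that order).

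RPL29, a large-subunit protein that mice can live without, had 444 and 682 RPKM in P10 bESCs, against 72.3 and 41.6 RPKM in blastocysts, a module-relative log2 difference of 1.55 ± 0.241 (SE, limma adjusted p = 0.000791). Also higher in P10 bESCs were RPS10, RPS9, RPS15, RPS29, RPL13, RPL7A, RPL35A, RPL8 and RPLP2, with log2 differences between 0.86 and 1.32.

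RPL38, which in mice is needed for translation of Hox mRNAs, went the other way. It had 298 and 394 RPKM in P10 bESCs, against 412 and 251 RPKM in blastocysts, so the deposited values overlapped although nearly every other member was lower in blastocysts. Relative to the module median it was at 0.394 and 0.392 in P10 bESCs and at 1.31 and 1.21 in blastocysts, a log2 difference of -1.68 ± 0.222 (SE, limma adjusted p = 0.000333).

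RPL9, a large-subunit protein, had 141 and 214 RPKM in P10 bESCs and 238 and 199 RPKM in blastocysts. Its module-relative level was 0.186 and 0.213 in P10 bESCs and 0.759 and 0.959 in blastocysts, a log2 difference of -2.09 ± 0.257 (SE, limma adjusted p = 0.000222). This was the largest decrease in P10 bESCs among the 61 genes on that scale.

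RPS3, a protein of the mRNA entry channel that also acts in DNA repair, was at 0.992 and 1.22 times the module median in P10 bESCs and at 2.00 and 3.69 in blastocysts, a log2 difference of -1.30 ± 0.284 (SE, limma adjusted p = 0.00476, and 0.0506 without P10 line A). The blastocyst pools differed from each other by more than the P10 lines did. RPL34 and RPL10A, both large-subunit proteins, differed by -1.35 ± 0.206 and -1.18 ± 0.204 on the log2 scale (SE, limma adjusted p of 0.000701 and 0.00144 in that order). Also lower in P10 bESCs were RPL24, RPL19, RPL11, RPL31, RPS27, RPS24, RPL23, RPL35 and RPS21, with log2 differences between -1.16 and -0.61.

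**Figure D3:**
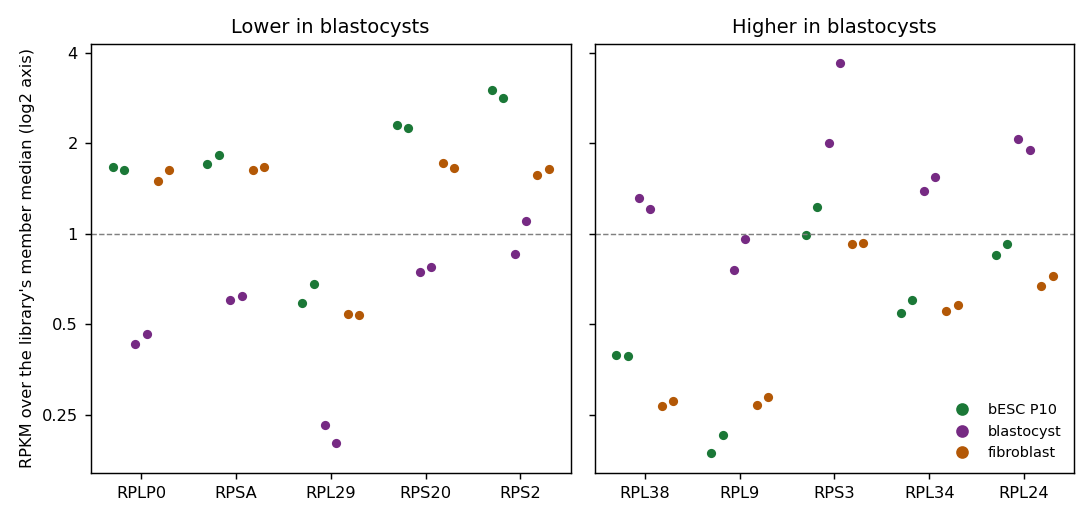
RPKM of 10 ribosomal protein genes divided by the median ribosomal protein gene of the same library, on a log2 axis with 1 as the dashed line, for P10 bESCs, blastocysts and fibroblasts, 2 libraries each. RPLP0, RPSA, RPL29, RPS20 and RPS2 lie lower in both blastocyst pools than in the other 4 libraries, and RPL38, RPL9, RPS3, RPL34 and RPL24 lie higher.

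The ratio of RPLP0 to RPL38, a pair chosen after their values were seen, was 4.24 and 4.17 in P10 bESCs, 0.328 and 0.384 in blastocysts and 5.59 and 5.87 in fibroblasts. Such a ratio within a library does not depend on the library total. In P10 bESCs and fibroblasts RPLP0 was the higher gene of the pair, and in both blastocyst pools RPL38 was.

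As deposited, 53 of 61 genes (86.9%) were higher in P10 bESCs than in blastocysts and 0 were lower, against 73.0% and 7.33% of all genes tested. At an unadjusted p under 0.05 the number lower was also 0. The median change of the 61 genes was 1.64 on the log2 scale and that of all genes 1.43, so the module stood 0.22 above the median gene. This direction did not hold under other scalings: relative to the median gene the module was at -0.34 with median-of-ratios scaling and at 0.34 with quantile normalization, and as deposited it was at -0.05 without P10 line B and at -0.11 without blastocyst pool B. The 8 genes without a call were RPL9, RPL38, RPL34, RPS3, RPL10A, RPL24, RPL19 and RPL11, and 15 genes, RPLP0, RPSA, RPS2, RPS20 and RPL29 among them, were called higher under all 3 scalings, as were 27.2% of all genes.

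The blastocyst pools also held more RNA of trophectoderm markers. The 6 markers summed to 157 and 188 RPKM in P10 bESCs and to 957 and 665 RPKM in blastocysts, where none was at 0. In P10 bESCs nearly all of it was KRT8, with 115 and 150 RPKM, and KRT18, with 41.9 and 37.9 RPKM. CDX2 was listed at 0 in P10 bESCs, and GATA3, GATA2 and TFAP2C had at most 0.138 RPKM. The 7 fibroblast markers summed to 657 and 1008 RPKM in P10 bESCs, mostly from VIM, and to 2.54 and 3.19 RPKM in blastocysts. In blastocysts COL3A1, VIM and LUM were at 0 in pool A and DCN in pool B. The 4 hypoblast markers summed to 1.15 and 2.48 RPKM in P10 bESCs and to 29.8 and 38.7 RPKM in blastocysts, with SOX17 at 0 in all 4 libraries. The part of cell makeup in the ribosomal protein differences was not tested.

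Blastocysts were also compared with skin fibroblasts, with the blastocyst libraries shared with the comparison above. Relative to the module median 17 of 61 genes (27.9%) were higher in blastocysts and 14 (23.0%) lower, against 34.6% and 23.6% of all genes tested. The shares of the 61 genes were near or under those of all genes, which this scaling does not centre. Without fibroblast line A, and likewise without line B, 11 were called higher and 4 lower. RPL38, RPL9, RPS3, RPL24 and RPL19 had the largest increases, and RPLP0, RPSA, RPL29, RPS20 and RPS29 the largest decreases.

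RPL38 was at 1.31 and 1.21 times the module median in blastocysts, against 0.267 and 0.278 in fibroblasts, a log2 difference of 2.20 ± 0.222 (SE, limma adjusted p = 8.57e-05). RPL24, which bridges the subunits, was at 2.06 and 1.90 in blastocysts, against 0.672 and 0.724 in fibroblasts, a difference of 1.50 ± 0.189 (adjusted p = 0.000281 by limma). RPL19, another bridge protein, was at 2.31 and 3.55 in blastocysts, against 1.03 and 1.05 in fibroblasts, a difference of 1.46 ± 0.225 (adjusted p = 0.000784 by limma). RPL9 differed by 1.62 ± 0.257 and RPS3 by 1.54 ± 0.284 (SE, limma adjusted p of 0.000929 and 0.00199 in that order). All 5 genes, picked for these increases, had higher module-relative levels in both pools than in both fibroblast lines.

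RPLP0 was at 0.431 and 0.464 times the module median in blastocysts, against 1.49 and 1.63 in fibroblasts, a log2 difference of -1.80 ± 0.189 (SE, limma adjusted p = 0.000105). RPSA was at 0.600 and 0.623 in blastocysts, against 1.62 and 1.67 in fibroblasts, a difference of -1.43 ± 0.179 (adjusted p = 0.000275 by limma). RPL29 differed by -1.32 ± 0.241, RPS20 by -1.15 ± 0.171 and RPS29, a small zinc-binding protein, by -1.10 ± 0.318 (SE, limma adjusted p of 0.00194, 0.000671 and 0.0168 in that order). RPS29 lost its call without either fibroblast line, with adjusted p of 0.108 and 0.132.

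As deposited, 57 of 61 genes (93.4%) were lower in blastocysts than in fibroblasts and 0 were higher, also 0 at an unadjusted p under 0.05, against 63.4% and 11.0% of all genes tested. The 61 genes had a median change of -2.10 on the log2 scale and all genes one of -1.15. Relative to the median gene the module was at -0.94 as deposited, -0.44 with median-of-ratios scaling and -0.35 with quantile normalization, so its direction was the same in all 3. RPLP0 showed the largest decrease, with 135 and 96.3 RPKM in blastocysts, against 2041 and 1769 RPKM in fibroblasts (log2 -4.05 ± 0.260, SE, limma adjusted p = 2.7e-05). Genes called lower under all 3 scalings numbered 20 of 61, against 29.9% of all genes, with RPLP0, RPSA, RPL29, RPS20 and RPS29 among them. The 6 trophectoderm markers summed to 957 and 665 RPKM in blastocysts and to 15.6 and 11.8 RPKM in fibroblasts, where CDX2 was at 0 in both lines and GATA3 and KRT18 in line B. The 7 fibroblast markers summed to 2.54 and 3.19 RPKM in blastocysts and to 12673 and 11803 RPKM in fibroblasts. Their part in these differences was not tested.

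P10 bESCs and fibroblasts were closer to each other in module makeup than either was to blastocysts. The SD of the 61 module-relative log2 differences was 0.44 for P10 bESCs against fibroblasts, 0.92 for P10 bESCs against blastocysts and 0.83 for blastocysts against fibroblasts. Across the 61 genes, which are not independent, Spearman correlations of RPKM lay between 0.82 and 0.86 for a P10 with a fibroblast library, between 0.45 and 0.50 for a P10 library with a blastocyst pool, and between 0.56 and 0.58 for a blastocyst pool with a fibroblast line. Libraries of one group had 0.94 to 0.99. These values share libraries and are given as a description.

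**Figure D4:**
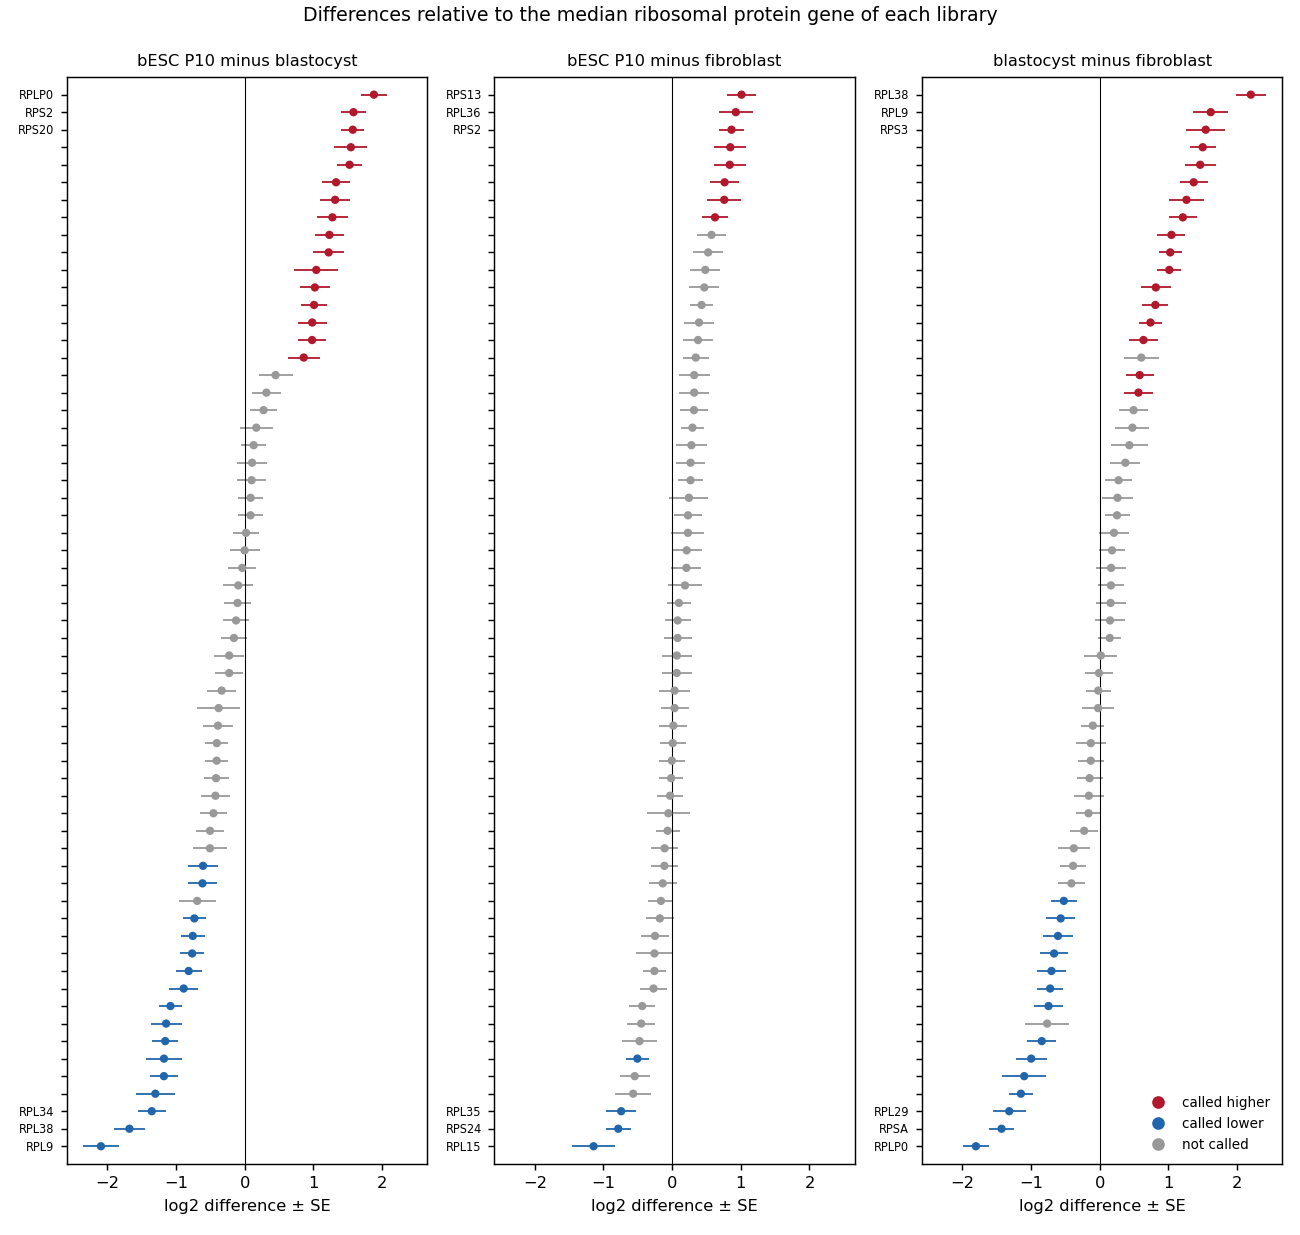
Log2 differences of the 61 ribosomal protein genes after each library was scaled to an equal median of these genes, with SE bars, for the 3 comparisons, each ordered by size; the 3 genes at either end are named; red marks genes called higher, blue lower and grey no call by limma. P10 bESCs against blastocysts span -2.09 (RPL9) to 1.88 (RPLP0), P10 bESCs against fibroblasts -1.14 (RPL15) to 1.01 (RPS13), and blastocysts against fibroblasts -1.80 (RPLP0) to 2.20 (RPL38).

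Against fibroblasts, 8 of 61 genes (13.1%) were higher in P10 bESCs relative to the module median and 4 (6.56%) lower, against 34.6% and 11.1% of all genes tested. The higher genes included RPS13, RPL36, RPS2, RPLP2, RPS23 and RPL7A, and the lower ones were RPL15, RPS24, RPL35 and RPS12. These calls depended on which libraries entered the fit. Without fibroblast line A no gene was called in either direction, without fibroblast line B 2 were called higher and none lower, without P10 line A 1 and 1, and without P10 line B 2 and 1.

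RPS13, an early-assembling protein of the small subunit, had 711 and 926 RPKM in P10 bESCs, against 639 and 492 RPKM in fibroblasts. Its module-relative level was 0.939 and 0.920 in P10 bESCs and 0.468 and 0.454 in fibroblasts, a log2 difference of 1.01 ± 0.204 (SE, limma adjusted p = 0.00451). Both P10 values were above both fibroblast values on that scale. RPL36 differed by 0.93 ± 0.247, RPS2 by 0.86 ± 0.188 and the stalk protein RPLP2 by 0.84 ± 0.235 (SE, limma adjusted p of 0.0155, 0.00632 and 0.0193 in that order).

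RPL15, a large-subunit protein mutated in some patients with Diamond-Blackfan anaemia, had 47.7 and 72.3 RPKM in P10 bESCs, against 181 and 185 RPKM in fibroblasts. RPS24, another gene of that human disease, had 1070 and 1175 RPKM in P10 bESCs, against 3080 and 2355 RPKM in fibroblasts. RPL35, near the exit of the peptide tunnel, had 350 and 429 RPKM in P10 bESCs, against 1026 and 797 RPKM in fibroblasts. None of the 3, picked by their calls, overlapped between the groups. Their module-relative log2 differences were -1.14 ± 0.317, -0.78 ± 0.179 and -0.74 ± 0.214, and that of RPS12 was -0.51 ± 0.169 (SE, limma adjusted p of 0.0185, 0.00783, 0.0217 and 0.0382 in that order).

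As deposited, 10 of 61 genes (16.4%) were lower in P10 bESCs than in fibroblasts, against 21.9% of all genes, and 0 were higher, against 35.4% of all genes. At an unadjusted p under 0.05 the number higher was also 0. The share of lower genes was near that of all genes. The lower genes included RPL15, RPS24, RPL35, RPL27A, RPS12, RPL9, RPL26, RPL7 and RPS16, with log2 changes between -1.62 and -0.66. Without fibroblast line A 1 gene was called lower in place of 10, without P10 line A 3 were, and without fibroblast line B 6 were. RPL15 fell by 1.62 ± 0.246, RPS24 by 1.26 ± 0.260 and RPL35 by 1.22 ± 0.284 on the log2 scale (SE, limma adjusted p of 0.0017, 0.00629 and 0.0104 in that order). RPL27A changed by -1.02 ± 0.358 (SE, limma adjusted p = 0.0463). Under all 3 scalings 4 genes, RPL15, RPL35 and RPS24 among them, were called lower, as were 21.2% of all genes.

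The median of the 61 genes was -0.40 on the log2 scale against fibroblasts and -0.63 relative to the median gene of all genes tested. With quantile normalization the median was 0.15, so no direction is given for the module as a whole. The 7 fibroblast markers summed to 657 and 1008 RPKM in P10 bESCs, mostly from VIM, and to 12673 and 11803 RPKM in fibroblasts. None was at 0, and their part in these differences was not tested.

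Genes of 1 structural group of the ribosome could differ in what they did. Of the stalk proteins, RPLP0 and RPLP2 carry a plain symbol here; RPLP1 and RPL12 have suffixed features. RPLP0 and RPLP2 were both higher in P10 bESCs than in blastocysts within the module, RPLP2 by 0.86 ± 0.235 (SE, limma adjusted p = 0.014). Between blastocysts and fibroblasts RPLP0 was lower, whereas RPLP2 differed by -0.02 ± 0.235 (adjusted p = 0.954 by limma). RPLP2 had 578 and 705 RPKM in P10 bESCs, 135 and 77.8 in blastocysts and 601 and 411 in fibroblasts.

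RPL11, which with RPL5 and 5S RNA can bind MDM2 when ribosome assembly fails, had 758 and 1047 RPKM in P10 bESCs, 678 and 448 in blastocysts and 1468 and 1150 in fibroblasts. Within the module it was lower in P10 bESCs than in blastocysts, with a log2 difference of -1.08 ± 0.173 (SE, limma adjusted p = 0.000943), and higher in blastocysts than in fibroblasts, with one of 1.01 ± 0.173 (adjusted p = 0.00138 by limma). Between P10 bESCs and fibroblasts its difference was -0.07 ± 0.173 (adjusted p = 0.782 by limma).

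Of 4 proteins reported to be unevenly present on polysomes of mouse embryonic stem cells, RPL10A, RPL38, RPS7 and RPS25, the first 3 were tested and RPS25 has suffixed features. RPL10A and RPL38 were lower in P10 bESCs than in blastocysts within the module, and RPS7 differed by -0.16 ± 0.188 (SE, limma adjusted p = 0.513). Against fibroblasts none of the 3 was called, with log2 differences of 0.04 for RPL10A, 0.52 for RPL38 and 0.01 for RPS7 and adjusted p by limma of 0.905, 0.0843 and 0.978.

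A list of 13 genes linked to Diamond-Blackfan anaemia in humans had 11 tested. Against fibroblasts 4 of 11 were lower in P10 bESCs as deposited, RPL15, RPS24 and RPL26 among them, and 2 within the module, RPL15 and RPS24, where 21.9% and 11.1% of all genes were lower on these scales. Against blastocysts 3 were higher in P10 bESCs within the module, RPS10, RPS29 and RPL35A, and 3 lower, RPL11 and RPS24 among them, against 33.7% and 20.7% of all genes. The median of the 11 was -0.54 as deposited against fibroblasts, where that of the 61 genes was -0.40.

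RPS27A, which is made as a fusion with ubiquitin, had 1250 and 1472 RPKM in P10 bESCs, 432 and 323 in blastocysts and 1682 and 1465 in fibroblasts, and its module-relative differences were not called in any comparison, with limma adjusted p of 0.26 to 0.713.

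Other parts of the translation machinery were read beside the ribosomal proteins, from lists of known factors. The 7 elongation factors tested were all higher in P10 bESCs than in blastocysts as deposited, and 6 of 7 were higher relative to the ribosomal protein median, where 73.0% and 33.7% of all genes were higher on these scales. Relative to the median gene their median was 1.17 as deposited, 0.69 with median-of-ratios scaling and 1.32 with quantile normalization. Of the 7, EEF1A2 had 0.532 and 1.947 RPKM in P10 bESCs and was listed at 0 in both blastocyst pools. EIF5A2 had 0 and 0.222 RPKM in blastocysts, so the calls of both genes rest on values near 0. EEF1A1 was not among the 7. Its suffixed feature EEF1A1_2 was among the 2 most abundant features of every P10 and fibroblast library. EEF2, which moves the ribosome along the mRNA, had 745 and 1071 RPKM in P10 bESCs, against 106 and 91.3 RPKM in blastocysts (log2 3.17 ± 0.236, SE, limma adjusted p = 4e-05). EIF5A, which helps the ribosome through peptide bonds that form slowly, had 433 and 344 RPKM in P10 bESCs, against 46.3 and 44.6 RPKM in blastocysts (log2 3.06 ± 0.189, SE, limma adjusted p = 2.28e-05). Neither gene, picked by adjusted p, overlapped between the groups.

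Of 29 initiation factors, 24 were higher in P10 bESCs than in blastocysts as deposited, and none was lower at an adjusted or an unadjusted p under 0.05, against 73.0% and 7.33% of all genes. Relative to the ribosomal protein median 2 were higher and 8 lower, against 33.7% and 20.7% of all genes. EIF3B, a scaffold subunit of the initiation complex, had 61.9 and 44.5 RPKM in P10 bESCs, against 6.46 and 5.51 RPKM in blastocysts (log2 2.94 ± 0.208, SE, limma adjusted p = 3.35e-05). Against fibroblasts 3 of 29 were higher in P10 bESCs and 2 lower as deposited, against 35.4% and 21.9% of all genes. EIF4E, which binds the mRNA cap, had 91.4 and 97.9 RPKM in P10 bESCs, against 33.7 and 41 RPKM in fibroblasts (log2 1.33 ± 0.173, SE, limma adjusted p = 0.000903).

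Factors that build ribosomes were set against the proteins they assemble. Of 71 ribosome biogenesis factors tested, 52 were higher in blastocysts than in fibroblasts relative to the ribosomal protein median and 1 was lower, against 34.6% and 23.6% of all genes. As deposited 9 were higher and 29 lower, against 11.0% and 63.4% of all genes. Relative to the median gene the list's median was 0.66 as deposited, 1.02 with median-of-ratios scaling and 0.83 with quantile normalization, while that of the 61 ribosomal protein genes was under 0 in all 3. PES1, which acts in large-subunit assembly, had 3.00 and 2.13 RPKM in blastocysts, against 30.1 and 27.2 RPKM in fibroblasts, and was lower as deposited (log2 -3.07 ± 0.270, SE, limma adjusted p = 8.31e-05).

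Between P10 bESCs and fibroblasts 22 of the 71 biogenesis factors were higher in P10 bESCs and 3 lower as deposited, against 35.4% and 21.9% of all genes, while no ribosomal protein gene was higher. IMP3, UTP18 and RSL1D1 were among the higher ones, with RSL1D1 at 106 and 84.1 RPKM in P10 bESCs, against 38.4 and 38.1 RPKM in fibroblasts. SBDS, which frees the large subunit for translation, was lower, with 23 and 24.2 RPKM in P10 bESCs, against 121 and 102 RPKM in fibroblasts (log2 -2.19 ± 0.180, SE, limma adjusted p = 0.000146). The RNA polymerase I list, which transcribes ribosomal RNA, had 9 of 19 genes higher as deposited and none lower, with 1 lower at an unadjusted p under 0.05. With median-of-ratios scaling 4 were higher and 2 lower, against 3210 and 2977 of all 11761 genes. With quantile normalization 5 were higher and 0 lower, against 3348 and 2947 of all genes. POLR1A, the largest subunit of RNA polymerase I, averaged 16.6 RPKM in P10 bESCs and 7.08 RPKM in fibroblasts (log2 1.12 ± 0.187, SE, limma adjusted p = 0.00261). Factors of the nascent chain gave 0 higher and 2 lower of 7 as deposited, with 1 higher at an unadjusted p under 0.05, and factors of ribosome recycling and quality control 2 higher and 1 lower of 10. A list of growth control genes, those of mTOR signalling among them, had 12 higher and 6 lower of 30, and one of ribosomal stress regulators 2 higher and 1 lower of 8.

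Mitochondrial ribosomal proteins, a separate family of 74 genes all tested, were also read beside them. Against fibroblasts 15 were higher in P10 bESCs and 10 lower as deposited, against 35.4% and 21.9% of all genes. Their median difference was 0.04 on the log2 scale, and the cytosolic one -0.40. Against blastocysts 50 of 74 were higher and 4 lower as deposited, against 73.0% and 7.33% of all genes, so these shares were near those of all genes. Their median difference was 0.96, and the cytosolic one 1.64. Relative to the cytosolic ribosomal protein median 6 were higher and 29 lower in P10 bESCs than in blastocysts, against 33.7% and 20.7% of all genes. Whether the families differ was not tested.

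The 8 later libraries, lines A and B from passages 12 to 46, come with another feature list in which the same rule finds 54 names, 50 of them shared with the 64. Levels were not tested across the file sets. Of the 50, 36 had a median of at least 100 RPKM over the 8 libraries, and their later median was 0.94 to 2.89 times the P10 mean, with a median ratio of 1.46. Their median per library was 1164 RPKM in line A at P13, 1441 at P23, 1172 at P35 and 1377 at P45, and 1384 RPKM in line B at P12, 1329 at P24, 1269 at P35 and 1342 at P46. It followed no order with passage in either line.

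Among these, RPLP0 had at least 1752 RPKM in every later library, with a median of 1883 RPKM, and RPSA had a median of 1887 and RPS2 of 3102 RPKM. The highest ratio was that of RPL15, with a later median of 173 RPKM, against 47.7 and 72.3 RPKM at P10. The lowest was that of RPS23, with 586 RPKM, against 438 and 810 RPKM at P10.

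Another 12 genes that averaged at least 100 RPKM at P10 were under 50 RPKM in all 8 later files: RPL3, RPL7, RPL13A, RPL23, RPL26, RPL36, RPL37, RPL38, RPLP2, RPS12, RPS19 and RPS27. RPL7 was listed at 0 in all 8, and RPL38 was between 14.4 and 29.7 RPKM. The rest of the module was high in the same files, and the feature lists differ, so these values were not read as a change with passage; the cause was not tested.

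**Figure D5:**
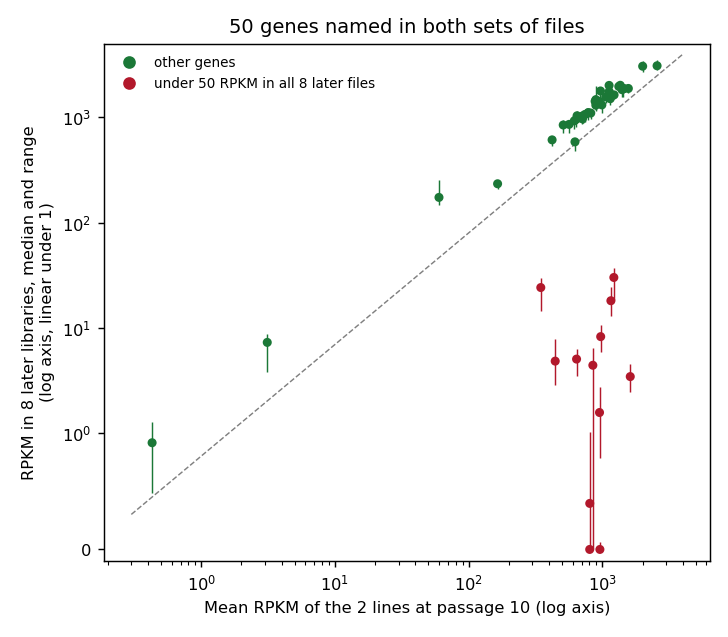
RPKM of the 50 ribosomal protein genes named in both sets of files, as the median (point) and range (line) over the 8 later libraries, against the mean of the 2 lines at P10, with the line of equality dashed. The 12 red genes were under 50 RPKM in all 8 later files; the 36 genes at 100 RPKM or more had ratios of 0.94 to 2.89.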

How the data were processed

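Total RNA libraries, made with a TruSeq RNA kit per the labels' protocols, were deposited by the authors as 1 file each of RPKM values, read counts scaled by gene length and library total, without the counts. Per the submitters' processing notes, edgeR was among the tools and UMD3.1 was the build, with no role or version; which reads entered the totals is not stated. Of 23231 features in the 6 files compared, 26 with an unreadable name, 25 with a date as name and 21 with a blank value were left out.

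RPKM is no count, so log2(RPKM + 1) was tested two-sided in R 4.3.3, using limma 3.58.1 with moderated variances and a trend. A gene entered when 2 or more of the 6 libraries had 1 RPKM or more, which held for 11761, and p-values were Benjamini-Hochberg adjusted over them, with 0.05 as the threshold. The 3 groups shared 1 spread. The fit was tested on simulated data. A reference symbol table of another assembly matched 63 of 64 genes, so no positions are given. The read depth is unknown, so counting error cannot be given. Tables were handled in pandas 2.3.3 and numpy 2.4.6 under Python 3.11.15.

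Named per comparison were the 5 called genes with the largest change each way, on either scale, genes with the highest and lowest mean, paralogs, and up to 4 genes of each other list by adjusted p. The members, the lists and the tests were chosen with earlier results of these data known. Alternatives were median-of-ratios scaling, quantile normalization, a pseudocount of 0.1, no filter, the replicate letter as a block, the 2 groups compared alone, and each library left out. Some genes that the rule names are not reported here.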

Additional observations from a re-analysis of the deposited data

How the results depend on the processing

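For P10 bESCs against fibroblasts, the counts as deposited (0 higher, 10 lower) became 18 lower with median-of-ratios scaling, 6 higher and 4 lower with quantile normalization, and 1 higher without a filter on low values. With each library left out in turn, 1 to 11 genes were lower. The median change of the 61 genes, -0.40, was 0.15 with quantile normalization; relative to the median gene, -0.63, it was 0.11, and -0.78 to -0.25 with 1 library left out. For P10 bESCs against blastocysts (53 higher, 0 lower), median-of-ratios scaling gave 15 and 14 and quantile normalization 22 and 5. The median change, 1.64, was -0.17 with median-of-ratios scaling and 0.33 with quantile normalization. Relative to the median gene, 0.22, it was -0.34 with median-of-ratios scaling, -0.31 with a pseudocount of 0.1, 0.90 without a filter, and -0.11 to 0.51 with 1 library left out, where it fell under 0 without P10 line B (-0.05) or blastocyst pool B (-0.11). For blastocysts against fibroblasts (0 higher, 57 lower), median-of-ratios scaling gave 4 and 23 and quantile normalization 10 and 20. The median change, -2.10, was -0.54 and -0.30 under these scalings. Relative to the median gene, -0.94, it was -0.44 and -0.35, then -0.49 with a pseudocount of 0.1 and -1.73 without a filter. Relative to the module median, P10 bESCs against fibroblasts (8 higher, 4 lower) gave 2 lower without a filter, and 0 to 11 higher and 0 to 7 lower with 1 library left out. On that scale blastocysts against fibroblasts (17 higher, 14 lower) gave 9 lower with a replicate block, 11 to 21 higher with 1 library left out, and 4 to 13 lower, the 4 without either fibroblast line. The letters A and B were not used as a pairing in the main fit. B minus A differences correlated at -0.08, -0.10 and 0.19 over 11761 genes between groups. With 2 libraries per group this cannot show whether a letter marks a shared batch. The replicate block also ended the calls of RPL27A (adjusted p = 0.0618, as deposited) and RPL35 (adjusted p = 0.0505, within the module), both from limma, for P10 bESCs against fibroblasts. The summed share averaged 15.7% in P10 bESCs, 4.70% in blastocysts and 17.4% in fibroblasts, and 18.6%, 6.11% and 21.1% with suffixed features counted; without the 2 most abundant features it was 13.4% in blastocysts. Of 470 repeats of the 44 differences of named genes, 422 kept direction and call, 48 lost the call and 0 reversed. The causes of these moves were not tested. The 44 differences were picked for large called changes and their repeats share libraries, so a reversal was unlikely from the outset. Median-of-ratios scaling and quantile normalization were applied to 15 of the 44, those as deposited, and to none of the module-relative ones. Depth in reads is unknown, and 2 libraries per group limit every p-value.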

Other observations

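Features that carry a ribosomal protein symbol with a numbered suffix were outside the comparisons, and their values are given as a description. RPLP1_1, named for a stalk protein, had 1233 and 1287 RPKM in P10 bESCs, 258 and 165 RPKM in blastocysts and 1767 and 1425 RPKM in fibroblasts. RPL5_2, named for the partner of RPL11, had 992 and 1180 RPKM in P10 bESCs, 399 and 334 RPKM in blastocysts and 1418 and 1286 RPKM in fibroblasts. RPL39_4 had 320 and 408 RPKM in P10 bESCs, 52.0 and 28.2 RPKM in blastocysts and 934 and 831 RPKM in fibroblasts. All 3 were lowest in both blastocyst pools. RPS15A_1 had 164 and 187 RPKM in P10 bESCs, 520 and 342 RPKM in blastocysts and 379 and 454 RPKM in fibroblasts, and was lowest in both P10 lines. RPS25_1, named for a protein reported as uneven on polysomes, had 1051 and 1351 RPKM in P10 bESCs, 779 and 637 RPKM in blastocysts and 1535 and 1258 RPKM in fibroblasts.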
